A study of Mus musculus with 16 samples.

Results

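The cells compared here were iPSC-derived mesodermal cells sorted before TGF-β2 treatment (T0), divided by their *Sox9* transcripts. ScxGFP iPSCs, made from mice that carry GFP under regulatory sequences of *Scx*, were led to mesoderm with the Wnt agonist CHIR and the Hedgehog inhibitor cyclopamine. Both were withdrawn before T0. The iPSC-derived cells of either class share the transgene and this treatment. The iPSCs had been grown on feeder cells from ICR mice, and whether any feeder cells were carried over was not tested. Live single cells (Hoechst-positive, Sytox-negative) were sorted without a gate on GFP into 384-well plates and sequenced by CEL-Seq2, which tags each captured mRNA molecule with a unique molecular identifier (UMI). There were 3 T0 plates, and 3 more plates for each of T3, T6, and T9, after 3, 6, and 9 days with TGF-β2. Nothing in the labels says that the plates came from separate cultures. The classes were compared within plates, so p-values measure how far their difference varied between plates, which may be technical. T0 cells had no TGF-β2 and came from 4 days of induction, listed with 5% FBS. T3 cells then had 10 ng/ml TGF-β2 at 1% FBS, both in DF medium with insulin, transferrin, and selenite. The paper's methods describe 1 or 2 days without CHIR and cyclopamine, then a change to 1% FBS the day before TGF-β2. Whether serum differed between the time points when cells were sorted is therefore not settled. A T0 cell was used when it held at least 200 genes, at least 3000 UMIs, and no more than 1 UMI of *Tdgf1*, a gene of pluripotent cells. Of 1152 T0 wells (4608 in the series), 994 met this rule. The *Sox9*-positive class held the 329 cells with 2 or more *Sox9* UMIs and the *Sox9*-negative class the 449 cells with 0. The 216 cells with 1 *Sox9* UMI were in neither class.

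*Sox9* is a transcription factor of the SRY-related HMG-box family. It is required for cartilage formation, where it acts with *Sox5* and *Sox6* on genes of cartilage matrix such as *Col2a1* and *Acan*. In the embryo it is also found earlier, in mesenchymal progenitors of the somite and limb from which chondrocytes, tenocytes, and ligamentocytes arise, and in other lineages such as neural crest. The comparison asks what else differed between T0 cells with and without *Sox9* transcripts.

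The classes were chosen by their *Sox9* UMIs, so the level of *Sox9* is a description and was left out of every test. *Sox9* (ENSMUSG00000000567, GRCm38 chromosome 11, 112782224 to 112787760, plus strand) stood at 372, 417, and 414 counts per 1000000 UMIs (CPM) in the positive cells of plates 1, 2, and 3. The positive class took 106, 122, and 101 cells from these plates and the negative class 132, 152, and 165. The cells just inside the threshold, with 2 UMIs, numbered 97 of the 329, and a further 65 held 3 UMIs, while the 2 highest cells held 26 UMIs. The cells with 1 UMI just outside had a median of 10446 UMIs of all genes.

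**Figure D1:**
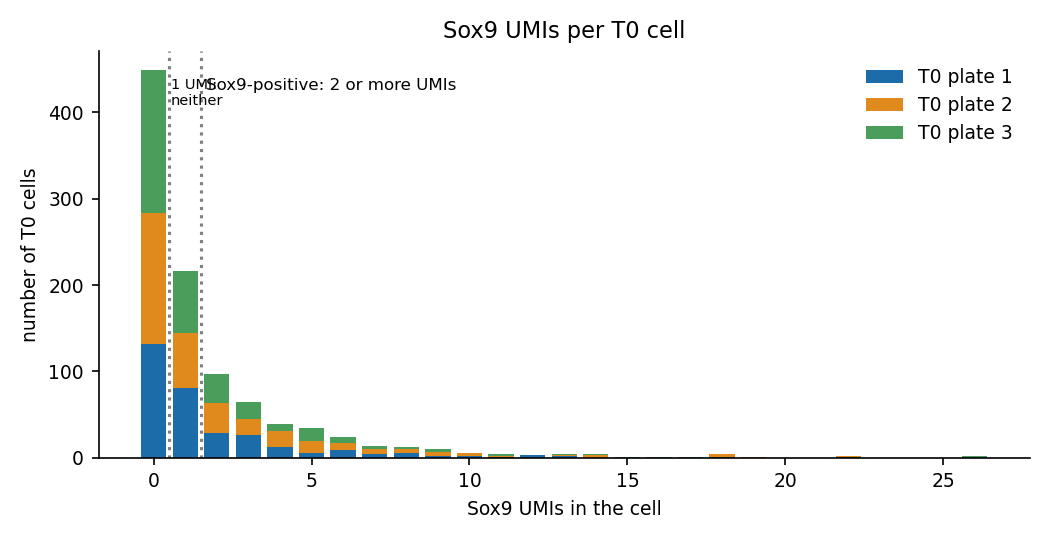
Number of T0 cells (y axis) at each number of *Sox9* UMIs (x axis), stacked by plate, among the 994 cells under the rule. The 449 cells at 0 formed the negative class, the 216 cells at 1 were left out, and the 329 cells at 2 or more formed the positive class, with no gap between the classes.

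A low count of *Sox9* also depends on how deeply a cell was read. The positive cells had medians of 12676, 11645, and 10660 UMIs and 4132, 3920, and 3684 genes per cell in plates 1, 2, and 3, against 10896, 9346, and 8723 UMIs and 3768, 3388, and 3215 genes in the negative cells, so that positive cells were deeper in each plate. After each cell was thinned to 3000 UMIs, 29.5% (293 of 994 cells, 95% interval 26.7 to 32.4%) of the 994 T0 cells still held a *Sox9* UMI, against 54.8% (545 of 994 cells, 95% interval 51.7 to 58.0%) before thinning. For a background, in the T0 cells that the rule left out for 2 or more *Tdgf1* UMIs the shares were 16.9% (13 of 77 cells, 95% interval 9.31 to 27.1%) after and 45.5% (35 of 77 cells, 95% interval 34.1 to 57.2%) before thinning, with medians of 18066 UMIs per cell there and 10272 in the cells under the rule. The thinned share was higher in the cells under the rule. These intervals are exact binomial (Clopper-Pearson) and cover counting error only. The negative class can therefore hold cells that had *Sox9* transcripts which were not captured.

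For the comparison, the UMIs of each gene were summed per plate and class, which gave 6 sums of 1158172 to 1539630 UMIs, and were tested within plates with the quasi-likelihood test of edgeR with Benjamini-Hochberg adjustment. Of 10671 genes tested, 59 (0.553%) were called at an adjusted p of 0.05, of which 8 (0.075%) were higher and 51 (0.478%) lower in *Sox9*-positive cells. At an unadjusted p under 0.05 there were 850 genes. Among the genes higher in *Sox9*-positive cells were *Dkk1*, *Plk1*, *Dusp6*, *Flrt3*, *F2r*, *Dpysl3*, and *Top2a*, described here, which rose by 1.33 to 1.49 times. The lower genes had a median log2 fold change of -1.75, and most of them had their UMIs in few cells. Fitted without the plate as a block, 16 genes were called, all lower in positive cells. DESeq2 called 11 genes, among them *F2r* as the only gene higher in positive cells. The number depended on single plates, with 15 genes called without plate 1, 41 without plate 2, and 94 without plate 3.

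Genes of a secreted and an intracellular signal antagonist rose in *Sox9*-positive cells. *Dkk1*, a secreted inhibitor of Wnt signalling, stood at 140.2, 130.0, and 92.9 CPM in the negative cells of plates 1, 2, and 3 and at 212, 194, and 138 CPM in the positive cells. It was higher in the positive cells of each plate, although plate 3 was lower in both classes and its positive cells overlapped the negative cells of plate 1. The difference was 0.58 ± 0.10 (log2 fold change ± SE, n = 3 plates) with an adjusted p of 0.00491 from edgeR. Its UMIs were found in 48.9% of positive and 35.2% of negative cells. *Dusp6*, a phosphatase that acts on ERK and is induced by FGF signalling, stood at 86.1, 111, and 109.8 CPM in negative and 136, 145, and 179 CPM in positive cells, without overlap. Its log2 fold change was 0.57 ± 0.11 with an adjusted p of 0.0134 (edgeR, n = 3). The cells with 1 *Sox9* UMI were close to the negative cells for *Dusp6*, at 92.2, 121, and 107 CPM.

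Among surface and cytoskeletal genes, *F2r*, which encodes the thrombin receptor PAR1, had the smallest SE of the 7. It stood at 372, 423, and 438 CPM in negative and 594, 545, and 579 CPM in positive cells, without overlap, and its log2 fold change was 0.48 ± 0.07 with an adjusted p of 0.00144 (edgeR, n = 3) and of 0.0183 with DESeq2. *Flrt3*, a membrane protein of the FLRT family that binds FGF receptors and Unc5 receptors, went from 153, 142, and 166 CPM in negative to 233, 224, and 195 CPM in positive cells, a log2 fold change of 0.50 ± 0.10. *Dpysl3*, a cytoskeletal regulator of the collapsin response mediator family, went from 345, 309, and 322 to 425, 467, and 424 CPM, a log2 fold change of 0.43 ± 0.08. For both genes the classes did not overlap, and the adjusted p values from edgeR were 0.0201 and 0.00858 (n = 3). Of the 7 genes, 5 had no overlap between the plates of the classes, against 4.33% of all tested genes in this direction. The 7 were called from these same sums, so this count follows in part from that choice. Over 17 alternative settings of the processing, *F2r* was called in 12, *Dkk1* in 10, and *Dpysl3* in 9. *Plk1* and *Flrt3* were each called in 7, *Dusp6* in 6, and *Top2a* in 5. *Plk1* lay above 0 in 15 of the 17 settings and the others in all 17.

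**Figure D2:**
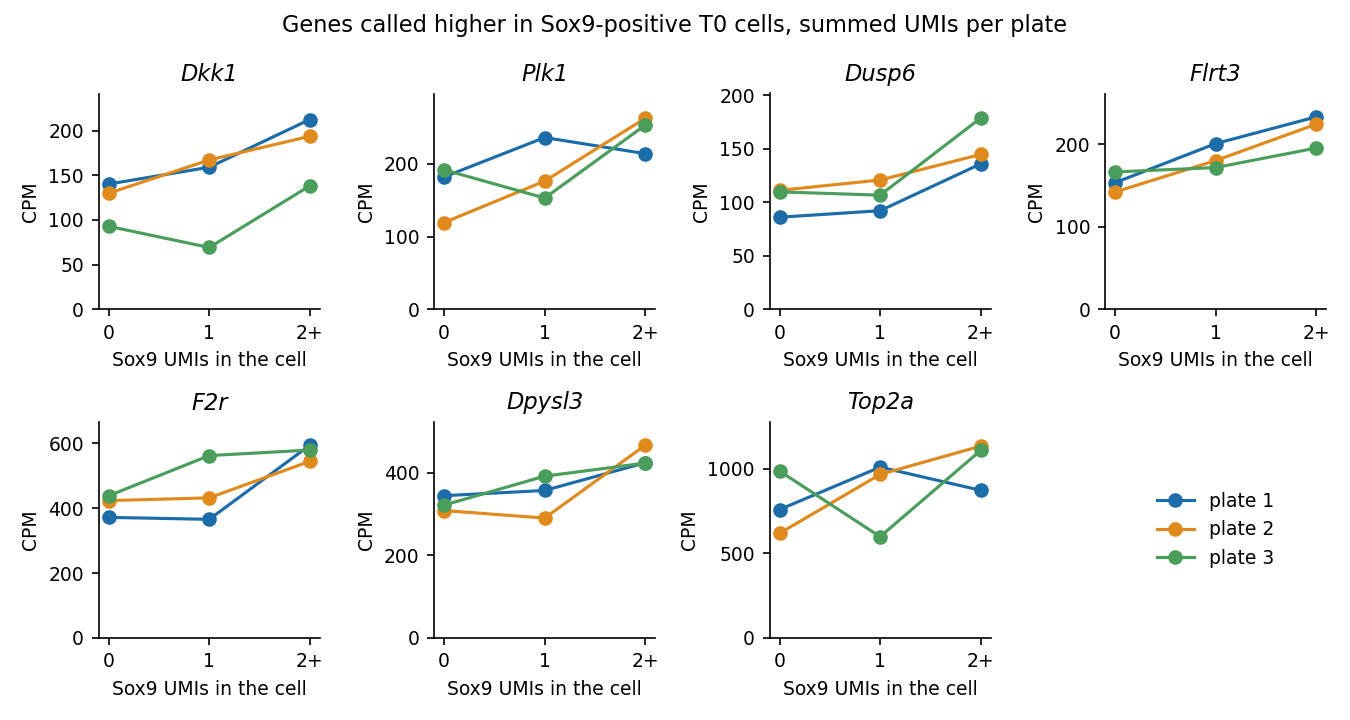
CPM (y axis, from 0) of 7 genes called higher in *Sox9*-positive T0 cells, in cells with 0, 1, and 2 or more *Sox9* UMIs (x axis). Each line is 1 plate, and in each plate the point at 2 or more lies above the point at 0, and the cells with 1 UMI, which were not tested, lie between these points in all 3 plates for *Flrt3* but not for the other genes shown.

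*Plk1* and *Top2a*, a mitotic kinase and a DNA topoisomerase of dividing cells, were also called. *Plk1* stood at 182, 119, and 192 CPM in negative and 214, 262, and 253 CPM in positive cells, with the widest gap in plate 2. Its log2 fold change was 0.58 ± 0.13 (edgeR adjusted p = 0.0348, n = 3). *Top2a* stood at 759, 618, and 987 CPM in negative and 873, 1134, and 1109 CPM in positive cells, so the positive cells of plate 1 lay below the negative cells of plate 3. Its log2 fold change was 0.41 ± 0.09 (edgeR adjusted p = 0.046, n = 3). They moved with the G2M phase list, of whose 52 tested genes 48 lay above 0, 1 was called, and the median log2 fold change was 0.25, against -0.003 over all tested genes. The S phase list did not share this shift, with 21 of 42 genes above 0, 0 called by edgeR (3 at an unadjusted p under 0.05), and a median of 0.01. In cells whose share of G2M UMIs was below the median of their plate, *Dkk1* stayed called at 0.83 and *F2r* at 0.56 (edgeR adjusted p = 0.0188 and 0.0441). *Dusp6*, *Flrt3*, and *Dpysl3* were not called in these cells, at 0.67, 0.36, and 0.24 (edgeR adjusted p = 0.406, 0.808, and 0.857). There edgeR gave *Plk1* -0.034 (adjusted p = 0.999). *Plk1* is not on that list, but it is a mitotic gene and these cells were chosen for few G2M UMIs. Its value there is therefore not independent of that choice. *Top2a* is on the list, so its own UMIs helped to choose these cells and its value there is not given. The median share of a cell's UMIs in G2M genes was 0.614, 0.792, and 0.762% in positive and 0.572, 0.559, and 0.633% in negative cells of plates 1, 2, and 3.

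Within the positive class, the levels of the 7 genes were also set beside the number of *Sox9* UMIs, without a test. *Dkk1* stood at 182 ± 50.9 CPM (mean ± SD, n = 3) in cells with 2 *Sox9* UMIs, at 159.7 ± 24.0 with 3 or 4, and at 201 ± 52.2 with 5 or more, with no steady order. The mean levels were higher at each step for *Flrt3*, at 199.96 ± 62.5, 223 ± 7.78, and 231 ± 32.7 CPM, and for *Top2a*, at 917 ± 165, 1021 ± 215, and 1152 ± 96.6 CPM. They were lower at each step for *Dpysl3*, at 488 ± 109, 481 ± 31.9, and 376 ± 52.5 CPM, and in no steady order for *Plk1*, *Dusp6*, and *F2r*. For *Flrt3*, *Top2a*, and *Dpysl3* the plates of cells with 2 and with 5 or more *Sox9* UMIs overlapped. Settings that took depth into account called fewer of the 7. With positive and negative cells paired on their UMIs (within 10%, in the same plate), 4 of the 7 were called again, *Dkk1*, *Flrt3*, *F2r*, and *Dpysl3*. With the same cells and classes, each cell thinned to 3000 UMIs, 14 genes were called, and 0 of them were higher in positive cells. The 7 stayed above 0, from 0.33 for *F2r* to 0.83 for *Dusp6*. Their edgeR adjusted p values ran from 0.113 for *Dusp6* to 0.73 for *Plk1*. The sums there held only 302848 to 495000 UMIs. When classes were set from cells thinned to 5000 UMIs, 5 genes were called in all and none of the 7 was among them. There *Dkk1* had a log2 fold change of 0.54 (edgeR adjusted p = 0.478), close to the 0.58 of all cells, *Dusp6* had the largest log2 fold change of the 7, 0.80, and *Plk1* turned to -0.14 (edgeR adjusted p = 0.216 and 0.991). That setting kept 50, 67, and 57 positive cells, with 249831 to 334751 UMIs per plate, so depth, class membership, and the number of cells changed together and their parts were not tested.

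Genes known as targets or partners of *Sox9* in cartilage showed no called difference at T0. Over all tested genes 0.553% were called, so 0 calls in this or another short list is near that share. Of 24 genes of the cartilage matrix list, 6 had enough UMIs to test, 0 were called by edgeR (0 also by DESeq2, 0 at an unadjusted p under 0.05), 5 lay above 0, and the median log2 fold change was 0.15. *Col2a1*, the main collagen of cartilage, stood at 13.7, 12.1, and 13.6 CPM in negative and 12.7, 14.5, and 19.0 CPM in positive cells, a log2 fold change of 0.22 ± 0.30 (edgeR adjusted p = 0.921, n = 3). *Col11a1*, a fibril collagen found with it, stood at 53.5, 39.5, and 53.9 and 58.1, 46.3, and 50.9 CPM, a log2 fold change of 0.08 ± 0.16 (edgeR adjusted p = 0.946). The classes overlapped for both collagens. *Hapln1*, which links aggrecan to hyaluronan, had a log2 fold change of 0.35 ± 0.18 (edgeR adjusted p = 0.651). *Acan*, the core protein of aggrecan, had 2 UMIs in the negative class and 0 in the positive class, and *Matn1* likewise 2 and 0, so that neither could be compared. Of 20 tested genes of mesenchymal condensation and adhesion, the step before cartilage forms, 0 were called by edgeR (6 at an unadjusted p under 0.05), with a median of -0.05.

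Of 16 tested chondrogenic transcription factors, 0 were called by edgeR (3 at an unadjusted p under 0.05), 9 lay above 0, and the median was 0.07. *Sox5* and *Sox6*, the partners of *Sox9*, were the highest of the 8 tested Sox genes, of which 0 were called. *Sox5* stood at 31.3, 26.8, and 44.8 CPM in negative and 41.1, 43.6, and 63.0 CPM in positive cells, higher in each plate, with a log2 fold change of 0.52 ± 0.18 (edgeR adjusted p = 0.334). *Sox6* had a log2 fold change of 0.35 ± 0.26 (edgeR adjusted p = 0.819). Neither passed the test. Of 11 somite and sclerotome factors 0 were called by edgeR (1 at an unadjusted p under 0.05), with 8 above 0 and a median of 0.30, the highest of the lists with 5 or more genes tested. Among them *Tbx18* had the largest value, 0.77 ± 0.38, and *Tcf15*, a factor of somite epithelium, 0.50 ± 0.26 (edgeR adjusted p = 0.649 and 0.688). The sclerotome factors *Pax1* and *Pax9* held 6 and 8 UMIs in negative and 0 and 7 in positive cells, too few to test.

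Of 25 tested limb and lateral plate factors, *Hand1* fell, with a median of 0.07. *Prrx1*, a factor of limb mesenchyme, stood at 408, 417, and 535 CPM in negative and 443, 567, and 496 CPM in positive cells, with overlap and a log2 fold change of 0.15 ± 0.08 (edgeR adjusted p = 0.721). Of 17 tested tendon genes 0 were called by edgeR (2 at an unadjusted p under 0.05), 8 lay above 0, and the median was -0.05. *Scx* itself was low in both classes. *Scx* stood at 13.7, 3.35, and 13.0 CPM in negative and 4.96, 15.2, and 5.18 CPM in positive cells, and 22 of 329 positive cells and 20 of 449 negative cells held an *Scx* UMI. Its plates crossed, and the log2 fold change was -0.21 ± 0.52 (edgeR adjusted p = 0.955). *Mkx* held 17 UMIs in each class, and *Tnmd*, the marker of mature tenocytes, held 0 in both. *Col1a2*, at 181, 226, and 187 CPM in negative and 243, 193, and 220.2 CPM in positive cells, had a log2 fold change of 0.14 ± 0.11 (edgeR adjusted p = 0.836).

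Signalling lists held single called genes. *Dkk1* was the called gene of 11 tested Wnt ligands and antagonists (median 0.13), where *Shisa3*, an inhibitor of Wnt and FGF receptor maturation, had 0.56 ± 0.14 (edgeR adjusted p = 0.116). *Dusp6* was the called gene of 12 tested FGF genes (median 0.08), 11 of which lay above 0. Other genes that respond to FGF did not pass, with *Spry1* at 0.38 ± 0.14 and *Spry2* at -0.01 ± 0.17 (edgeR adjusted p = 0.364 and 0.994). Of 14 tested genes on the beta-catenin target list, of 33 on the BMP and TGF-beta list, of 9 on the hedgehog list, and of 10 on the Notch list, 0 were called by edgeR (2, 4, 2, and 0 at an unadjusted p under 0.05), with medians of 0.02, 0.00, 0.09, and 0.04. *Gas1*, a hedgehog co-receptor, was higher in the positive cells of each plate, at 164, 189, and 220.2 CPM in negative and 218, 230.0, and 295 CPM in positive cells, and missed the threshold with 0.37 ± 0.09 (edgeR adjusted p = 0.0734). *Ngfr*, a receptor also used as a marker of neural crest, had the largest value of the 7 tested neural crest genes, 1.30 ± 0.35 (edgeR adjusted p = 0.14), and 0 of them were called (2 at an unadjusted p under 0.05). *Tgfb2*, the ligand added after T0, stood at 58.0, 56.9, and 65.0 CPM in negative and 114, 41.6, and 59.6 CPM in positive cells, with 0.20 ± 0.20 (edgeR adjusted p = 0.886).

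The retinoic acid list had 15 tested genes, 0 called by edgeR (4 at an unadjusted p under 0.05), 5 above 0, and a median of -0.10. *Aldh1a2*, the enzyme that makes retinoic acid in early mesoderm, was lower in the positive cells of each plate, at 161, 224, and 184 CPM in negative and 105, 193, and 138 CPM in positive cells. Its log2 fold change of -0.40 ± 0.10 did not pass (edgeR adjusted p = 0.117). Among 17 alternative settings it passed with no filter on low counts (edgeR adjusted p = 0.0356) and, in a setting chosen after seeing the data, without the cells rich in keratin transcripts described below, at -0.48 ± 0.10 (edgeR adjusted p = 0.0353), and had an adjusted p between 0.0765, without cells with epithelial UMIs, and 1, with DESeq2, in the others. *Rdh10*, which supplies the substrate of that enzyme, had -0.33 ± 0.11 (edgeR adjusted p = 0.293), and *Crabp1*, a binding protein of retinoic acid, 0.20 ± 0.07 (edgeR adjusted p = 0.354). Genes of mesenchymal progenitors had values near 0. *Hmga2* had a log2 fold change of -0.01 ± 0.05 and *Sox11* of 0.04 ± 0.05 (edgeR adjusted p = 0.974 and 0.915), and of the 12 mesenchymal markers, all tested, 0 were called by edgeR (1 at an unadjusted p under 0.05, median 0.11). Their summed level was 4394, 5200, and 5128 CPM in negative and 4595, 5386, and 5043 CPM in positive cells, so both classes carried the mesenchymal markers of the labelled cells.

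**Figure D3:**
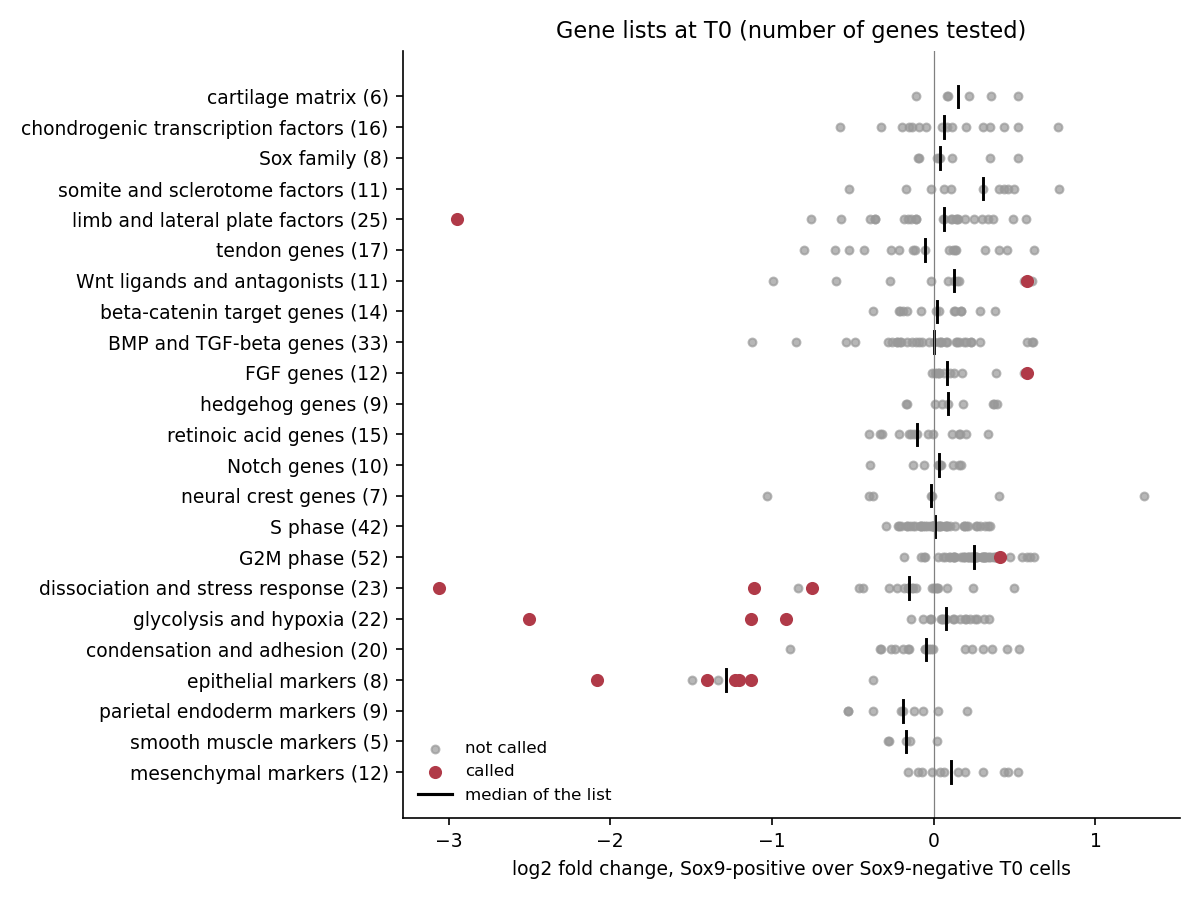
Log2 fold change of *Sox9*-positive over *Sox9*-negative T0 cells (x axis) for each tested gene of the lists with at least 5 tested genes (number in brackets), with the median as a black bar and called genes in red. The medians of the somite and sclerotome list (0.30) and the G2M list (0.25) lie farthest to the right, those of the signalling lists lie within 0.13 of 0, and the 8 tested epithelial markers lie to the left.

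Of the 23 genes of the table that lie within 2000000 bases of *Sox9* on chromosome 11, 10 had enough UMIs to test and 0 were called by edgeR, with 0 at an unadjusted p under 0.05. Their lowest adjusted p was 0.631, for the ribosomal gene *Rpl38*. *Cdc42ep4* (113726850 to 113751881), which encodes an effector of the GTPase Cdc42, had a log2 fold change of 0.18 ± 0.09, with an unadjusted p of 0.0721 and an adjusted p of 0.685 from edgeR. *BC006965*, a transcript that lies next to *Sox9* on the other strand, held 2 UMIs.

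The 51 genes that were lower in *Sox9*-positive cells included genes of epithelia. Of the 51, 45 had the same sign in 3 of 3 plates and 33 did not overlap between the classes, against 4.93% of all tested genes in this direction. The 51 were called from these same sums, so both counts follow in part from that choice. Of the 8 tested epithelial markers, all lay below 0 and 5 fell, *Krt18*, *Cdh1*, *Cldn4*, *Epcam*, and *Cldn6*, with a list median of -1.28. *Krt18*, a keratin of simple epithelia, stood at 274, 293, and 123 CPM in negative and 37.5, 43.0, and 83.8 CPM in positive cells, without overlap, and fell by 2.08 ± 0.25 on the log2 scale (edgeR adjusted p = 6.77e-05, n = 3). *Krt7*, its relative, stood at 50.2, 69.0, and 45.5 and 14.2, 11.9, and 13.8 CPM and fell by 2.05 ± 0.22 (edgeR adjusted p = 1.6e-05). Both keratins were lower in the positive cells of every plate. The adhesion gene *Cdh1*, which was lower in the positive cells of 2 of 3 plates, had a log2 fold change of -1.40 ± 0.29 and the tight junction gene *Cldn6* of -1.13 ± 0.17 (edgeR adjusted p = 0.0216 and 0.000969). DESeq2 called *Krt7* and *Cldn6* (adjusted p = 0.00043 and 0.0107) but not *Krt18* (adjusted p = 0.825), *Cdh1*, *Cldn4*, or *Epcam* (adjusted p = 1 for each).

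The other genes with large changes had different roles. *Hand1*, a factor of trophoblast, heart, and lateral mesoderm, stood at 19.6, 57.6, and 14.3 CPM in negative and 3.54, 5.29, and 2.59 CPM in positive cells, and had a log2 fold change of -2.95 ± 0.35 (edgeR adjusted p = 5.08e-05). *Phlda2*, an imprinted gene that restrains growth of the placenta, had -1.91 ± 0.27, and *Cited1*, a transcriptional coregulator, -1.92 ± 0.30. *Cd9*, a tetraspanin, went from 86.7, 37.5, and 31.2 to 10.6, 3.96, and 13.8 CPM with -2.47 ± 0.30. The X-linked homeobox gene *Rhox6* was very uneven, at 116, 16.1, and 2.60 CPM in the negative cells of plates 1, 2, and 3, and at 2.83, 1.32, and 1.73 CPM in positive cells. *Fabp3*, a fatty acid binding protein, had -3.81 ± 0.49, and *Ccser1* -1.96 ± 0.36. These 7 genes passed the test with edgeR adjusted p values between 8.53e-06 and 0.00897 (n = 3). DESeq2 called *Hand1* and *Cd9* of the 7 (adjusted p = 0.00397 and 0.000539), and gave *Phlda2*, *Cited1*, *Rhox6*, *Fabp3*, and *Ccser1* adjusted p values of 0.182 to 1.

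A few genes of the stress and of the glycolysis and hypoxia lists were also called lower. Of 23 tested genes of the dissociation and stress list 3 fell, *Trib3*, *Hspb1*, and *Atf3* (list median -0.15). *Hspb1*, a small heat shock protein, went from 339.7, 503, and 229 CPM in negative to 166, 189.7, and 131 CPM in positive cells, with -1.11 ± 0.10, and *Cryab*, another of that family, from 46.3, 109, and 48.1 to 9.20, 18.5, and 13.0 CPM, with -2.31 ± 0.21. Of 22 tested genes of the glycolysis and hypoxia list 3 fell, *Ndrg1*, *Slc2a1*, and *Slc2a3*, while 15 lay above 0 (median 0.07). *Slc2a1*, a glucose transporter, went from 168, 176, and 132 to 82.8, 69.4, and 104 CPM, with -0.91 ± 0.14, and *Ndrg1*, a gene induced by hypoxia, had -2.51 ± 0.37. The metallothionein *Mt2* went from 212, 96.5, and 152 to 36.1, 21.8, and 66.5 CPM, with -1.93 ± 0.18. For *Hspb1*, *Cryab*, *Slc2a1*, *Ndrg1*, and *Mt2* the edgeR adjusted p values lay between 2.75e-06 for *Hspb1* and 0.00157 for *Slc2a1* (n = 3), and DESeq2 called these 5 as well. *Trib3*, *Atf3*, and *Slc2a3* had edgeR adjusted p values of 0.013, 0.0394, and 0.00947, and DESeq2 did not call them (adjusted p = 0.638, 1, and 1).

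Most of these UMIs lay in few cells. For 33 of the 51 genes, over 50% of the UMIs in the negative class came from its 10 highest cells of 449. Of the 51, 22 were found in under 10% of negative cells, and a gene with few UMIs can reach a high share by its low level. The share over all tested genes was not computed, so this count has no background. *Hand1* was found in 30 negative and 12 positive cells, and the 10 highest held 84.8% of its UMIs in the negative class. The share was 61.3% for *Krt18*, 88.1% for *Phlda2*, and 94.2% for *Rhox6*. In the called genes that were higher in positive cells, the same share was at most 28.8%, without matching on level. In summed UMIs, fewer cells of a type and less RNA per cell cannot be told apart, and for these genes the count of cells is given for that reason.

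Cells with 5 or more UMIs over *Krt7*, *Krt8*, and *Krt18* made up 33 of 449 negative cells (7.35%) and 10 of 329 positive cells (3.04%), with 12, 13, and 8 negative and 4, 1, and 5 positive cells in plates 1, 2, and 3. Plate 3 had as large a share in positive as in negative cells, 4.95 and 4.85%. Cells with 1 *Sox9* UMI held them as well, 12 of 216 (5.56%), and the level of *Krt18* there was 387, 564, and 251 CPM, above that of negative cells in each plate. Cells with 2 or more UMIs over *Epcam*, *Cdh1*, *Cldn6*, and *Cldn7* were 73 (16.3%) of the negative and 41 (12.5%) of the positive class. In plates 1, 2, and 3 they were 22.7, 10.5, and 16.4% of negative and 17.9, 10.7, and 8.91% of positive cells. The share was thus not lower in the positive cells of plate 2. The summed level of the 11 epithelial markers was 707, 711, and 444 CPM in negative and 160.0, 182, and 348 CPM in positive cells.

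Most calls of lower genes were lost when these cells were left out. Without the 114 cells of either class with 2 or more of those epithelial UMIs, edgeR called 6 genes, all lower in positive cells (5 of them among the 59), and 633 at an unadjusted p under 0.05. Of the 51 genes, 31 still had enough UMIs to test. *Cdh1* and *Cldn6* are among them and also chose the cells left out, so the loss of their difference follows from that choice. The median log2 fold change of the other 29 moved from -0.91 to -0.21. *Hspb1* moved from -1.11 to 0.03 and *Krt18* from -2.08 to -0.21 (edgeR adjusted p = 0.987 and 0.946). The 7 higher genes kept their direction but were not called, with log2 fold changes from 0.24 for *Top2a* to 0.58 for *Plk1*. Without the 43 keratin-rich cells, a setting chosen after seeing the data, 24 genes were called, and 4 of the 7 were among them, *Dkk1*, *Plk1*, *F2r*, and *Dpysl3*.

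**Figure D4:**
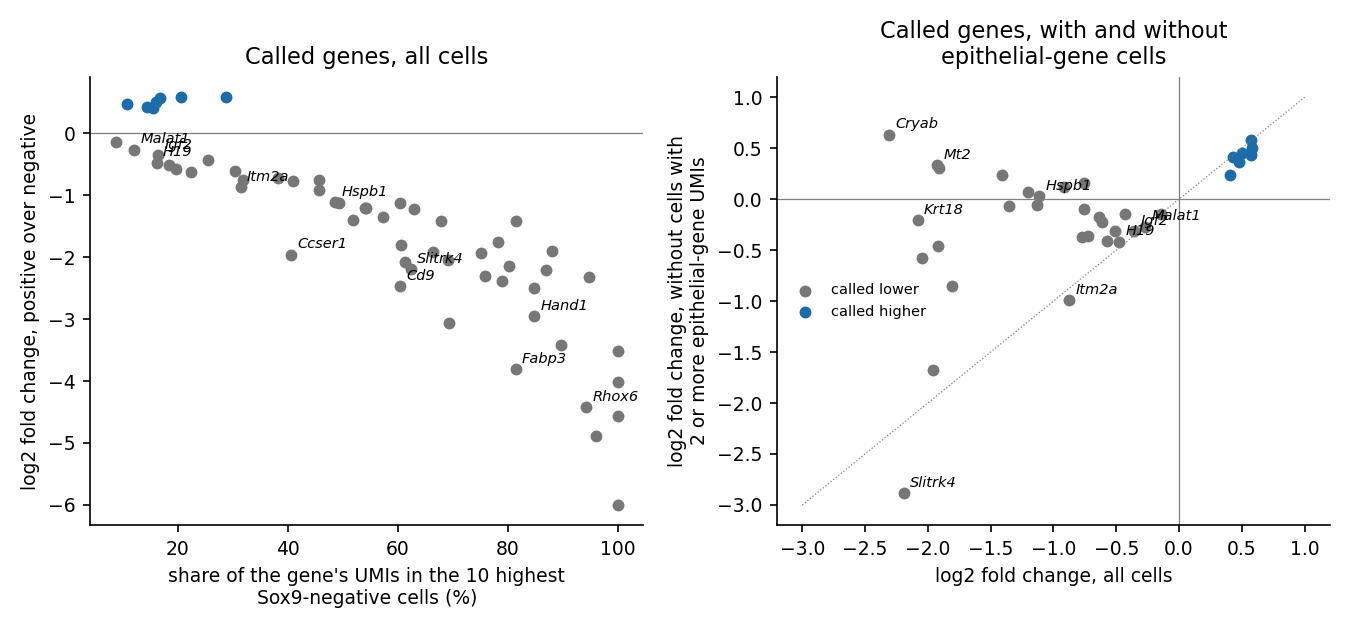
Left, log2 fold change of called genes (y axis) against the share of their UMIs in the negative class that lay in its 10 highest cells (x axis, percent), with 7 genes higher in positive cells in blue and the 51 lower genes in grey. Right, log2 fold change in all cells (x axis) and without cells with 2 or more epithelial UMIs (y axis) for those called genes that could be tested in both, without *Cdh1* and *Cldn6*, whose UMIs chose the cells left out, the dotted line marking equal values. *H19*, *Itm2a*, and *Slitrk4* stay near or below the line, while *Cryab* and *Mt2* move above 0.

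A smaller group was lower in *Sox9*-positive cells with and without the epithelial cells. *H19*, *Igf2*, *Itm2a*, *Slitrk4*, and *Malat1* were called both ways. *H19*, an imprinted noncoding RNA, stood at 2632, 2842, and 2239 CPM in negative and 1684, 1788, and 2088 CPM in positive cells, lower in each plate but least so in plate 3, with a log2 fold change of -0.48 ± 0.07 (edgeR adjusted p = 0.00146, n = 3) and of -0.42 ± 0.06 without the epithelial cells (edgeR adjusted p = 0.00116). *Igf2*, the imprinted growth factor gene beside it, stood at 3418, 3618, and 3349 and 2753, 2383, and 3028 CPM, without overlap, with -0.36 ± 0.06 and -0.32 ± 0.05 (edgeR adjusted p = 0.00229 and 0.0157). Both were found in nearly all cells of either class, *H19* in 442 of 449 negative and 327 of 329 positive cells. DESeq2 called none of the 5, with adjusted p values from 0.248 for *Malat1* to 1 for *H19* and *Igf2*.

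*Itm2a*, a membrane protein of early chondrocyte and muscle development, stood at 81.5, 65.0, and 62.4 CPM in negative and 37.5, 44.3, and 31.9 CPM in positive cells, without overlap, and had a log2 fold change of -0.87 ± 0.17 (edgeR adjusted p = 0.0128, n = 3). *Slitrk4*, a neuronal membrane protein, was rare, with UMIs in 29 negative and 11 positive cells, and had -2.19 ± 0.41 (edgeR adjusted p = 0.00905). *Malat1*, a nuclear noncoding RNA, had -0.27 ± 0.05 (edgeR adjusted p = 0.00905). In the cells with 1 *Sox9* UMI, *Itm2a* stood at 66.8, 51.4, and 77.9 CPM above the positive cells of each plate. *H19* stood there at 3223, 2040, and 1942 CPM, above the negative cells of plate 1, between the classes in plate 2, and below both in plate 3.

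Other cell types gave no called marker beyond the epithelial list. Of the 3 pluripotent, 1 endothelial, 9 parietal endoderm, 4 neural, 5 smooth muscle, 1 skeletal muscle, 2 cardiac, and 2 blood markers that could be tested, 0 were called by edgeR (4 at an unadjusted p under 0.05). The defining endothelial genes *Cdh5* and *Cldn5* held 0 UMIs in both classes, and the endothelial list summed to 22.8, 9.38, and 14.9 CPM in negative and 4.25, 6.61, and 13.0 CPM in positive cells. *Acta2* was uneven between plates, at 362, 714, and 192 CPM in negative and 711, 174, and 207 CPM in positive cells. Its classes crossed, with a log2 fold change of -0.28 ± 0.30 (edgeR adjusted p = 0.896), and without plate 2 it was called in the other direction, at 0.62 (edgeR adjusted p = 0.00348). The median share of mitochondrial UMIs was 11.7, 13.6, and 14.7% in positive and 12.7, 13.7, and 15.1% in negative cells of plates 1, 2, and 3, lower in the positive cells of each plate.

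The same rule at T3 gave 162 *Sox9*-positive and 726 *Sox9*-negative cells in 3 plates that the T0 comparison did not use. There edgeR called 39 of 9424 genes (0.414%), 28 higher (0.297%) and 11 lower (0.117%) in positive cells. None of the 7 genes higher at T0 was called at T3, where 3 of them lay above 0, and for none of them did the difference between the time points pass its own test. The comparisons rest on different plates. On the log2 scale, *Col11a1* rose at T3 by 0.84 ± 0.16, *Fmod*, a small proteoglycan of tendon and cartilage, by 1.50 ± 0.31, and *Tgfb2* by 1.10 ± 0.16, while the contractile genes *Acta2* and *Tagln* had -0.87 ± 0.12 and -1.96 ± 0.36 (edgeR adjusted p from 0.000831 to 0.0258, n = 3). Of 23 tested genes of the dissociation and stress list, edgeR called 4 higher in positive cells at T3, *Egr1*, *Fos*, *Fosb*, and *Jun*. Of 7 tested genes of the cartilage matrix list it called 2, *Col11a1* and *Fmod*. For *Col11a1* the difference between the time points, 0.69 ± 0.23, did not pass its own test (edgeR adjusted p = 0.282), so a stronger difference at T3 was not established. No gene was called at T3 once the classes were matched on UMIs, where 362 had an unadjusted p under 0.05. Matching kept 36, 70, and 56 of the 253, 227, and 246 negative cells in plates 1, 2, and 3, so the number of cells changed too. With each cell thinned to 3000 UMIs, edgeR called 22 genes at T3, 20 of them among the 39. DESeq2 called 25 genes at T3.

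The class effect itself differed between T3 and T0 for 18 of 11714 genes (0.154%) in an edgeR fit of the 12 sums. For 14 of them (0.12%) the effect was higher at T3 and for 4 (0.0341%) lower. The median over all genes tested was -0.08. *Socs2*, a suppressor of cytokine signalling, had -0.51 ± 0.16 at T0 and 0.89 ± 0.16 at T3, a difference of 1.35 ± 0.23 (adjusted p = 0.00533). *Igfbp5*, which binds IGF proteins, stood at 269, 227, and 209.8 CPM in negative and 158, 188, and 173 CPM in positive cells at T0, lower in each plate, and at 330.2, 742, and 411 and 749, 859, and 750.0 CPM at T3, higher in each plate, with a difference of 1.08 ± 0.18 (adjusted p = 0.00533). *Gja1*, a gap junction gene, had 0.01 ± 0.09 at T0 and 0.92 ± 0.13 at T3. *Plagl1* and *H19*, imprinted genes, were below 0 at T0 (-0.48 and -0.48) and above 0 at T3 (0.78 and 0.18). The differences of *Ndrg1*, *Cd9*, and *Slc2a1* were not among the 16 genes called once cells with epithelial UMIs were left out at both times.

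**Figure D5:**
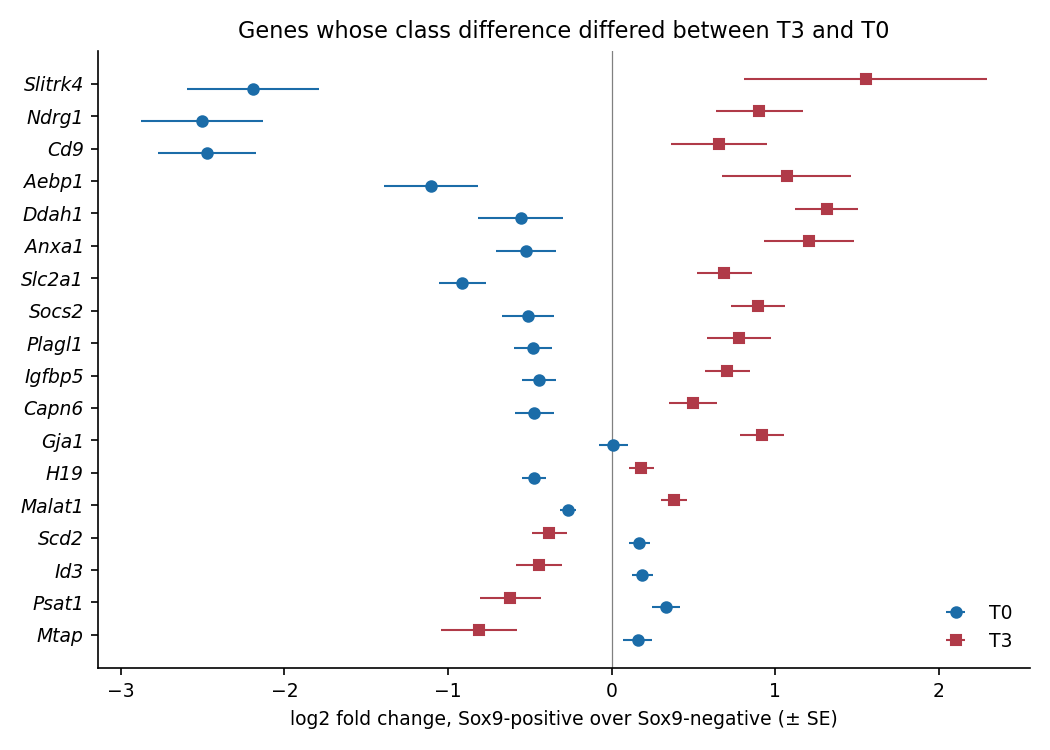
Log2 fold change of *Sox9*-positive over *Sox9*-negative cells (x axis, points with SE, n = 3 plates) at T0 (blue circles) and T3 (red squares) for the 18 genes whose class effect differed between the time points. Those with a higher effect at T3 lie below 0 at T0 and above 0 at T3, except *Gja1*, which lies at 0.01 at T0, and *Scd2*, *Id3*, *Psat1*, and *Mtap* lie the other way round.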

How the data were processed

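The values are UMI counts as deposited, whole numbers for each gene and well without normalization or a filter on cells. For them, the authors trimmed CEL-Seq2 reads, used HISAT2 2.2.1 for alignment to GRCm38, and assigned and collapsed UMIs by means of featureCounts and UMI-tools 1.0.1. The annotation release is not given in the sources used here, and gene positions are from GENCODE M21 for GRCm38. Libraries amplify 3' ends, so a gene's counts reflect its 3' end, and overlapping or near-identical genes may share UMIs.

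From these counts, 3 entries outside Ensembl (0.0642% of UMIs) were left out, cells were chosen and divided by the rule in the report, and UMIs were summed per plate and class without *Sox9*. No doublet caller was run, since cells were sorted singly. Depth per cell is given in the report. Sums were fitted with edgeR 4.0.16 in R 4.3.3 (filterByExpr, TMM, glmQLFit, glmQLFTest) with the plate as a block, since both classes of a plate are pooled in 1 library, which is where the pairing comes from. SEs were taken as the log2 fold change over the root of the F statistic. DESeq2 1.42.0 was the other tool. The fit was tried on 1 set of simulated sums, with dispersions estimated from the T0 sums themselves. It recovered 77 of 100 genes changed 2-fold and 87 of 100 changed 3-fold, with 9 false calls. With no gene changed, it made 1 call. Smaller changes, such as those of the genes higher in positive cells, were not simulated. Python 3.11.15, numpy 2.4.6, scipy 1.17.1, pandas 2.3.3, and matplotlib 3.10.9 were used for the rest. CPM are a gene's UMIs scaled to a total of 1000000 in its plate and class, with *Sox9* left out.

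Named genes were, in each direction, up to 12 called genes with the largest change, the same sign in 3 plates, and a mean of at least 20 CPM in the higher class, leaving out predicted genes and clone names, then genes of the lists, genes the study names for its single cells or PCR, and genes near *Sox9*. Among the lists, the members shown were picked after their values were seen, as were *Itm2a*, *Slitrk4*, *Malat1*, *H19*, *Igf2*, and the genes named at T3 and for the difference. The members, lists, and tests were chosen with earlier results of these data known, and no list was tested as a set. Among the genes called higher, 1 is not reported here, though it is in the counts of calls. The bulk RNA table, the T6 and T9 plates, and the barcode list were not used here. Alternatives were no block, DESeq2, its size factors, no filter, leaving out each plate, other limits on *Sox9*, UMIs, and *Tdgf1*, thinning, matching, and leaving out epithelial or dividing cells.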

Additional observations from a re-analysis of the deposited data

Results flagged for a closer look

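In 18 genes the difference between *Sox9*-positive and *Sox9*-negative cells was not the same at T3 as at T0, by edgeR's test of the interaction of class and time point with the plate as a block. As the T3 effect minus the T0 effect on the log2 scale, it was 3.71 for *Slitrk4*, 3.31 for *Ndrg1*, 3.10 for *Cd9*, 2.14 for *Aebp1*, 1.80 for *Ddah1*, 1.71 for *Anxa1*, and 1.55 for *Slc2a1*. It was 1.35 for *Socs2*, 1.19 for *Plagl1*, 1.08 for *Igfbp5*, 0.91 for *Capn6*, 0.85 for *Gja1*, 0.59 for *H19*, and 0.58 for *Malat1*. For *Scd2*, *Id3*, *Psat1*, and *Mtap* it was -0.61, -0.69, -1.01, and -1.03, with the higher effect at T0. Without cells with epithelial UMIs, edgeR called 16 genes for this difference, 11 of them among the 18, and with classes matched on UMIs 6, of which 4 were among the 18, *Cd9*, *Ddah1*, *Ndrg1*, and *Slc2a1*. The T3 plates also differ in depth, with medians of 4999, 6821, and 7420 UMIs per negative cell in plates 1, 2, and 3. The part of depth in these differences was not tested apart from the matched setting.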

How the results depend on the processing

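edgeR called 59 genes between the classes at T0, 39 at T3, and 18 for the difference between the time points. In that order, the counts were 16, 0, and 0 without the plate as a block, 11, 25, and 21 with DESeq2, 59, 35, and 30 with its size factors in edgeR, and 129, 72, and 152 with no filter on low counts. They were 21, 21, and 5 with cells of 1 *Sox9* UMI counted as positive, 78, 40, and 21 from 3 UMIs up, 14, 22, and 9 after thinning to 3000 UMIs, 5, 9, and 12 with classes from cells thinned to 5000, and 44, 0, and 6 with matched cells. With no minimum of UMIs they were 90, 41, and 26, with no limit on *Tdgf1* 87, 53, and 22, in cells with a low G2M share 18, 0, and 5, without cells with epithelial UMIs 6, 47, and 16, and, chosen after seeing the data, without keratin-rich cells 24, 39, and 18. Leaving out 1 plate gave 15 to 94 at T0, 12 to 36 at T3, and 5 (without T0 plate 1) to 39 (without T3 plate 1) for the difference. Fewer cells or genes enter several of these settings, and the cause was not tested for the others.

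The block of the plate is a true pairing, since both classes share a library, and 16 genes were called at T0 without it, all lower in positive cells. Where edgeR called 0 genes, it gave 402 (T3) and 660 (difference) at an unadjusted p under 0.05 without the block, 278 at T3 with a low G2M share, and 362 at T3 with matched cells. Of 784 values of 48 named genes, 563 kept their side of the threshold, 203 lost a call, 5 gained one, and 13 turned. Only 33 of the 48 were called in the main fit. The 563 include values of uncalled genes that stayed uncalled, so they overstate how often a call was kept. Without cells with epithelial UMIs, *Cryab* moved to 0.63, *Mt2* to 0.33, *Phlda2* to 0.31, *Cdh1* to 0.77, *Hspb1* to 0.030, *Cldn6* to 0.15, *Atf3* to 0.16, and *Slc2a1* to 0.12 on the log2 scale. *Cdh1* and *Cldn6* helped to choose the cells left out, so their 2 values are set by that choice. Without keratin-rich cells, *Cryab* moved to 0.13 and *Slc2a1* to 0.12. *Plk1* moved to -0.034 in cells with a low G2M share, a choice not independent of this mitotic gene, and to -0.14 with classes from thinned cells. *Acta2*, not called with 3 plates, was 0.62 and called without plate 2 and -1.08 (edgeR adjusted p = 0.266) without plate 1. Depth limits the T0 classes, since 0 *Sox9* UMIs does not show that *Sox9* was absent.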
